A study of Mus musculus with 9 samples.

Results

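This account follows 9 genes that are commonly used as markers of monocytes and macrophages, Lyz2, Cd14, Gpnmb, Apoe, Cd68, Adgre1, C1qa, C1qb and Anpep, in mouse dendritic cells sorted as cDC2. They were chosen by name, with earlier results of these data known; all 9 were found among the 40879 gene symbols counted and were among the 13251 genes that held enough reads to be tested. The cells came from bone marrow cultured with recombinant human Flt3L, the growth factor that drives dendritic cell development, and were isolated by flow cytometry before 3′ end sequencing (QuantSeq). There were 3 libraries in each of 3 groups. A20iKO cultures had the genotype A20fl/fl x CD11ccre, in which a Cre recombinase under the CD11c promoter removes A20 from cells that express CD11c. WT+IFNa cultures were wild type and had interferon alpha added on day 5. WT cultures were wild type and untreated by their names. All 9 cultures were grown with Flt3L at 100 ng/ml for 9 days, the design names 3 mice per group, and nothing says whether each library is a separate mouse, so p-values measure the spread between these libraries. The interferon step is worded the same way for every library in the culture notes, and the group names and treatment labels give it for 3 of them; the groups here follow those labels.

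Monocytes and macrophages are phagocytes that carry receptors for microbes and dead cells, large numbers of lysosomes and secreted proteins such as lysozyme, apolipoprotein E and the complement protein C1q. Conventional dendritic cells of the cDC2 kind share part of this equipment, including lysozyme and some surface receptors, and are told from monocyte-derived cells by sets of markers and not by any single gene. A20, the product of Tnfaip3, is a ubiquitin-editing enzyme that restrains NF-kB signalling, and interferon alpha signals through STAT proteins to a broad set of antiviral genes. CD11c is present on dendritic cells and on some macrophages, so the Cre does not separate these cells.

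Total counts ran from 6900598 to 10552756 per library. Tnfaip3 had 285, 476 and 377 counts in A20iKO libraries, 73, 84 and 74 in WT+IFNa libraries and 232, 51 and 42 in WT libraries; it was called higher in A20iKO than in WT (log2 fold change 1.95, adjusted p = 0.0280) and than in WT+IFNa (2.19, adjusted p = 0.0257), against the direction of the knockout label. A 3′ tag need not lie in the deleted exons, so these counts do not check the genotype, and the A20iKO libraries are called by their label throughout. Levels are given as counts per 1000000 counts of the library (CPM), scaled with edgeR's TMM factors, and since each transcript gives a tag at its 3′ end they can be set side by side between genes without a length correction. Differences are log2 fold changes from edgeR's quasi-likelihood test with Benjamini-Hochberg adjustment over all 13251 genes, and a gene was called where the adjusted p was under 0.05. The markers of cDC2 were uneven between the groups. All 15 listed cDC2 genes were tested; their summed level, most of it from H2-Aa, H2-Ab1 and Cd74, which antigen-presenting cells share, was 11789 to 12892 CPM in A20iKO libraries, 17443 to 20564 CPM in WT+IFNa libraries and 24178 to 30641 CPM in WT libraries, and 9 of the 15 were lower and 3 higher in A20iKO than in WT. Cd209a, a C-type lectin of cDC2, averaged 11.0 ± 4.32 CPM in A20iKO, 114 ± 19.5 CPM in WT+IFNa and 331 ± 63.9 CPM in WT (SD, n = 3 each). Mgl2, another such lectin, averaged 8.25 ± 2.13 CPM in A20iKO, 32.2 ± 11.3 CPM in WT+IFNa and 67.9 ± 10.8 CPM in WT, and Esam, a marker of a cDC2 subset, was near 0 in WT, at 6.25 ± 6.51 CPM in A20iKO, 1.57 ± 0.890 CPM in WT+IFNa and 0.523 ± 0.201 CPM in WT. Sirpa, Clec4a4 and Cd7 were the 3 called higher in A20iKO than in WT (adjusted p = 0.000112, 0.00182 and 0.0272). Sirpa averaged 455 ± 32.5 CPM in A20iKO, 197 ± 2.34 CPM in WT+IFNa and 170 ± 39.5 CPM in WT. Clec4a4 averaged 34.5 ± 3.16 CPM in A20iKO, 7.71 ± 2.50 CPM in WT+IFNa and 7.86 ± 0.843 CPM in WT. Cd7 averaged 148 ± 21.5 CPM in A20iKO, 90.1 ± 13.1 CPM in WT+IFNa and 79.2 ± 27.6 CPM in WT. Genes of connective tissue differed between single libraries within each group, with summed levels of 438 to 4233 CPM in A20iKO, 557 to 4472 CPM in WT+IFNa and 725 to 4060 CPM in WT.

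The markers did not move as a block. In A20iKO cells 7 of the 9 were higher than in WT, 1 was lower (Adgre1) and 1 did not pass the test (Cd68); over all genes tested, 5.77% were called higher and 4.91% lower in this comparison. Since the 9 were chosen with earlier results known, these counts describe them and are not independent evidence of a direction. In WT+IFNa cells 1 of the 9 was higher than in WT (Apoe), 3 were lower (Lyz2, Adgre1 and Anpep) and 5 did not pass, against 2.4% of all genes called higher and 0.702% called lower. Set directly against WT+IFNa cells, A20iKO cells had 4 of the 9 higher (Lyz2, Cd14, Gpnmb and Anpep), none lower (nor at an unadjusted p under 0.05) and 5 that did not pass, where 2.05% of all genes were called higher and 3.41% lower. Libraries of 2 groups did not overlap for 8 of the 9 markers in A20iKO against WT (28% of all genes), for 6 in WT+IFNa against WT (18.2%) and for 6 in A20iKO against WT+IFNa (24.6%). Both comparisons with WT use the same 3 WT libraries, and the direct comparison reuses the other 6. In bulk samples such as these, fewer cells of a type and less RNA per cell cannot be told apart.

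The 9 transcripts together took 0.142 to 0.168% of all counts in A20iKO libraries, 0.0504 to 0.0599% in WT+IFNa libraries and 0.0642 to 0.0772% in WT libraries. Lyz2 was the most abundant of them in A20iKO and in WT: its mean level ranked 123 of 13251 genes in A20iKO, 1413 in WT+IFNa and 369 in WT. At the other end C1qa ranked 4483 in A20iKO, 8117 in WT+IFNa and 10351 in WT.

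**Figure D1:**
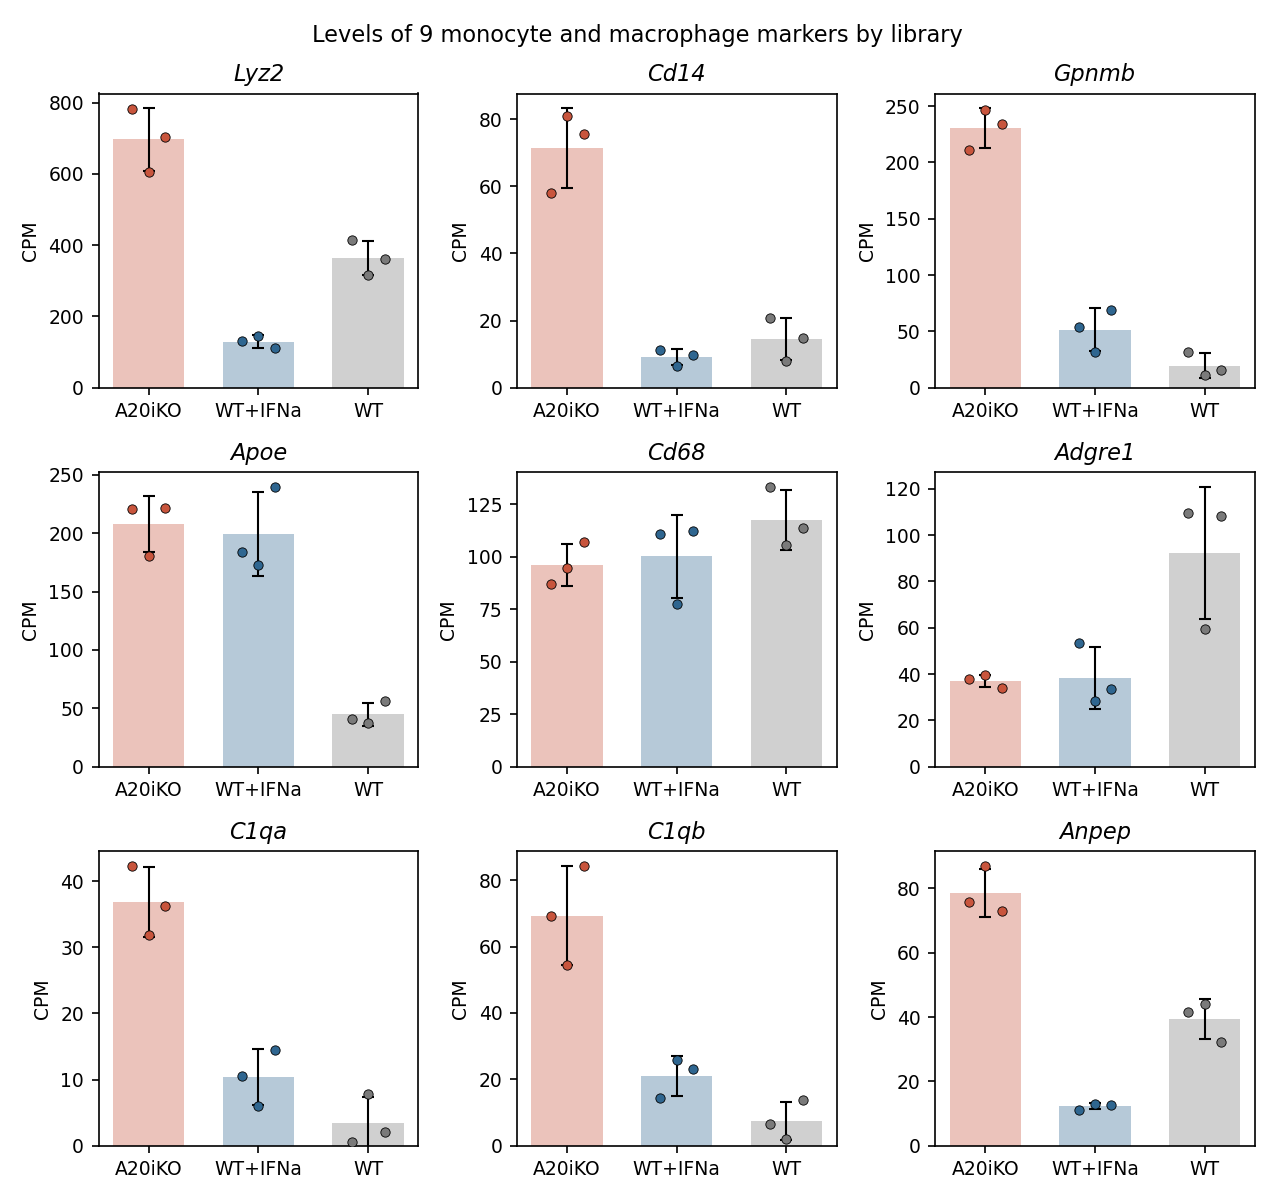
Level of each of the 9 markers in CPM on a linear axis from 0, with a point for each library, a bar at the mean and an error bar of 1 SD (n = 3 per group). In A20iKO the Lyz2 points lie at 606 to 783 CPM, above both wild-type groups, the Apoe bars of A20iKO and WT+IFNa stand at 208 and 199 CPM, and Adgre1 is highest in WT at 92.3 CPM.

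The promoters shown belong to markers called in opposite directions in A20iKO and WT+IFNa (Lyz2 and Anpep), called higher in A20iKO (C1qb and Gpnmb) or called in no comparison (Cd68), with Lyz1 as the near copy of Lyz2. RefSeq start sites on GRCm38.p6 gave windows of 250 bases before to 50 bases after the start for 6 of the 9, Lyz2, Gpnmb, Apoe, Cd68, C1qb and Anpep; Cd14, Adgre1 and C1qa are named only. The reads were counted on GRCm39, so these coordinates belong to the windows and not to the counts. Each line is written 5′ to 3′ on the strand of the gene. Capitals mark the core GGAAGT bound by PU.1, the transcription factor that myeloid cells depend on, or its reverse complement ACTTCC. Lyz2 lies at chr10:117282223-117282522 on the minus strand, and Lyz1, its neighbouring copy, at chr10:117292819-117293118 on the minus strand. Anpep lies at chr7:79848161-79848460 on the minus strand, C1qb at chr4:136886151-136886450 on the minus strand, Cd68 at chr11:69666121-69666420 on the minus strand and Gpnmb at chr6:49036268-49036567 on the plus strand.
Lyz2: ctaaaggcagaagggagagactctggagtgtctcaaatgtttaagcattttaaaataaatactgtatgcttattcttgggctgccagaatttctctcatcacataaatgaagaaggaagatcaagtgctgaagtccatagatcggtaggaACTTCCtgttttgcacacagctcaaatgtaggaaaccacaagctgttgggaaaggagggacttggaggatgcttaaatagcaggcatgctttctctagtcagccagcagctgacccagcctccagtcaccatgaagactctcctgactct
Lyz1: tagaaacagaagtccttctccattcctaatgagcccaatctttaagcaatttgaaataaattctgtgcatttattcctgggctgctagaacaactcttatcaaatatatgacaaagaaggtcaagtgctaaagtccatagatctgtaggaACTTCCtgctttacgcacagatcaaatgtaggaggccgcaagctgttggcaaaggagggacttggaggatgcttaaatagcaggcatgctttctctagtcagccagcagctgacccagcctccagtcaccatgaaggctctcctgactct
Anpep: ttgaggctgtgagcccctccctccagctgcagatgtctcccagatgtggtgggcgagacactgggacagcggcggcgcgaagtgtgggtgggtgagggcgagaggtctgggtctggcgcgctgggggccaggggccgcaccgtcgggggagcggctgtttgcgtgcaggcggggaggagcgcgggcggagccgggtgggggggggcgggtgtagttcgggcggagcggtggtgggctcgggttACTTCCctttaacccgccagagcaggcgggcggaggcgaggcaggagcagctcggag
C1qb: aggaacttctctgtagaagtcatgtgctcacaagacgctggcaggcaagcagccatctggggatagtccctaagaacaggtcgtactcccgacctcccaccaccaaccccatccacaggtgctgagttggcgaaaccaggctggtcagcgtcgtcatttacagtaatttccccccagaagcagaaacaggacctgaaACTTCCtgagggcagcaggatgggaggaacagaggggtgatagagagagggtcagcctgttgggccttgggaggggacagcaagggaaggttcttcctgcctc
Cd68: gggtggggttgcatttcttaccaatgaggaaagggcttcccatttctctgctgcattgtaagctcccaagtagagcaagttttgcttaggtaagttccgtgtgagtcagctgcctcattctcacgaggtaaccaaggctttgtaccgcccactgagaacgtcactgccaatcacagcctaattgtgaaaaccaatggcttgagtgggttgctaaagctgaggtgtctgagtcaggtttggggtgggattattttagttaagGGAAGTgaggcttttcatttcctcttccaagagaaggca
Gpnmb: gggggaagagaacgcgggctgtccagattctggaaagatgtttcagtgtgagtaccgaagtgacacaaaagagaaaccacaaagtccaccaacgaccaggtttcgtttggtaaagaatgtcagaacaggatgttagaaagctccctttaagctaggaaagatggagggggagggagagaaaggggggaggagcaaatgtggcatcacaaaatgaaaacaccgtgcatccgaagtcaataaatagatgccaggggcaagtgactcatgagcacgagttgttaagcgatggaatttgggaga

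The PU.1 core was found at -100 from the start in Lyz2 and in Lyz1, at -7 in Anpep and at -53 in C1qb, each on the opposite strand, and at 12 in Cd68 on the gene's own strand, counted on the gene's strand to the first base of the match. None of the Gpnmb window and the 3 Apoe windows held it. This hexamer was present in 23.8% of all 32851 windows searched, so a match is common. Neither the interferon-stimulated response element, searched as GAAA, any 2 bases and GAAA, nor TTCNNNGAA, the gamma-activated site bound by STAT dimers, nor a form of the kB site, searched as GGG, any 2 bases and TTTCC, was found on either strand in any member's window. They occur in 3.44%, 8.3% and 1.63% of all windows, which says only that these letters are not in the members' windows. The Lyz2 and Lyz1 windows shared 249 of 298 aligned bases, or 83.6%.

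Lyz2 encodes lysozyme M, a secreted enzyme that cleaves bacterial cell walls and is the classical transcript of granulocytes, monocytes and macrophages. Its level was 783, 606 and 703 CPM in A20iKO libraries, 132, 145 and 110 CPM in WT+IFNa libraries and 413, 317 and 361 CPM in WT libraries. No library of any group overlapped one of another: A20iKO was highest, WT stood between and WT+IFNa was lowest. Against WT, Lyz2 rose in A20iKO by a log2 fold change of 0.94 (SE 0.160, adjusted p = 0.00178) and fell in WT+IFNa, with a log2 fold change of -1.49 (SE 0.162, adjusted p = 0.000103). Between A20iKO and WT+IFNa the difference was 2.43 on the log2 scale (SE 0.167, adjusted p = 3.47e-06), the ninth smallest p of that comparison. Lyz1, the near-identical neighbour whose reads could be confused with those of Lyz2, averaged 4.32 ± 3.66 CPM in A20iKO, 1.80 ± 2.45 CPM in WT+IFNa and 3.70 ± 0.933 CPM in WT, and was not called in any comparison. The labels and notes do not say how reads that fit both genes were counted.

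Anpep encodes aminopeptidase N, also known as CD13, a surface enzyme that trims peptides and is used as a myeloid marker. It had 75.8, 87.1 and 73.0 CPM in A20iKO libraries, 11.2, 12.8 and 12.8 CPM in WT+IFNa libraries and 41.6, 44.1 and 32.2 CPM in WT libraries. The order of the groups was that of Lyz2, again with no overlap. Anpep rose in A20iKO against WT with a log2 fold change of 1.00 (SE 0.220, adjusted p = 0.00975), and fell in WT+IFNa against WT with one of -1.68 (SE 0.228, adjusted p = 0.000735). The difference between A20iKO and WT+IFNa was 2.68 (SE 0.235, adjusted p = 2.07e-05). Its call in A20iKO against WT was lost without A20iKO replicate 2 (adjusted p = 0.0679) and without WT replicate 3 (adjusted p = 0.0504).

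Cd14 encodes the co-receptor that hands lipopolysaccharide to TLR4 and MD-2, and is the standard surface marker of human classical monocytes. Levels were 58.1, 80.9 and 75.6 CPM in A20iKO libraries, 11.1, 6.59 and 9.79 CPM in WT+IFNa libraries and 20.7, 8.01 and 14.9 CPM in WT libraries. Every A20iKO library was above every other library, while the WT+IFNa and WT libraries overlapped. In A20iKO, Cd14 was higher than in WT by a log2 fold change of 2.29 (SE 0.356, adjusted p = 0.000924) and higher than in WT+IFNa by 2.96 (SE 0.369, adjusted p = 0.000329). The difference of WT+IFNa from WT was -0.67 with a 95% interval of -1.43 to 0.09 (adjusted p = 0.476), which leaves room for a fall or for no change.

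Partners of CD14 in lipopolysaccharide sensing were counted beside it. Of all genes tested, 5.77% were called higher and 4.91% lower in A20iKO against WT, so none called in a list of 12 is not set apart. None of 12 tested genes of that pathway was called higher or lower in A20iKO against WT or in WT+IFNa against WT by edgeR's test, and 1 was lower in A20iKO than in WT+IFNa. Tlr4 averaged 13.2 ± 0.712 CPM in A20iKO, 23.3 ± 6.14 CPM in WT+IFNa and 25.4 ± 2.24 CPM in WT, with an adjusted p of 0.0702 in A20iKO against WT. Ly96, which encodes MD-2, averaged 14.4 ± 4.42 CPM in A20iKO, 5.56 ± 3.78 CPM in WT+IFNa and 3.64 ± 1.55 CPM in WT, with an adjusted p of 0.0700 in the same comparison. At an unadjusted p under 0.05, 3 of the 12 were higher and 2 lower in A20iKO than in WT, and 2 were higher in WT+IFNa than in WT. DESeq2 called 2 higher and 1 lower in A20iKO and none in WT+IFNa, and limma called none.

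Gpnmb encodes a lysosomal and surface glycoprotein that the MITF family of transcription factors controls and that marks lipid-laden macrophages. Its level was 211, 247 and 234 CPM in A20iKO libraries, 53.5, 31.9 and 69.3 CPM in WT+IFNa libraries and 31.8, 10.8 and 15.6 CPM in WT libraries. A20iKO lay far above both other groups, and the lowest WT+IFNa library was just above the highest WT library. Its log2 fold change in A20iKO against WT was 3.56 (SE 0.378, adjusted p = 4.47e-05), as large within error as those of C1qa and C1qb, and it exceeded WT+IFNa by 2.16 (SE 0.354, adjusted p = 0.00257). In WT+IFNa against WT the log2 fold change was 1.40 (95% interval 0.63 to 2.16, adjusted p = 0.0529) and missed the threshold. That value was past it in 7 of 21 alternatives, among them without WT replicate 1, where it was 1.96 (adjusted p = 0.00313), and without WT+IFNa replicate 2 (adjusted p = 0.0329).

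Cd68 encodes macrosialin, a heavily glycosylated relative of the LAMP proteins in the endosomes and lysosomes of phagocytes. It was present at 87.1, 94.6 and 107 CPM in A20iKO libraries, 111, 77.4 and 113 CPM in WT+IFNa libraries and 134, 106 and 114 CPM in WT libraries. All 3 groups overlapped. The log2 fold change was -0.29 in A20iKO against WT (95% interval -0.70 to 0.12, adjusted p = 0.433) and -0.23 in WT+IFNa against WT (interval -0.64 to 0.18, adjusted p = 0.724). Between A20iKO and WT+IFNa it was -0.06 (interval -0.47 to 0.35, adjusted p = 0.957). Cd68 was the 1 marker of the 9 that was not called in any comparison, and by mean level only Lyz2 stood above it in WT cells.

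Other lysosomal genes and MITF family members gave mixed results: of 14 tested, 3 rose and 1 fell in A20iKO against WT, none was called in WT+IFNa against WT (1 lower at an unadjusted p under 0.05, and none by DESeq2 or limma), and 1 was higher in A20iKO than in WT+IFNa. The shares of all genes were 5.77% higher and 4.91% lower in A20iKO against WT. Lamp1, a structural protein of the lysosomal membrane, averaged 675 ± 14.0 CPM in A20iKO, 458 ± 31.3 CPM in WT+IFNa and 399 ± 16.8 CPM in WT, and rose in A20iKO against WT (log2 fold change 0.76, adjusted p = 0.00108). Mitf itself averaged 38.0 ± 7.06 CPM in A20iKO, 16.8 ± 6.34 CPM in WT+IFNa and 10.2 ± 0.984 CPM in WT, and rose in A20iKO against WT (1.90, adjusted p = 0.00269).

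Apoe encodes apolipoprotein E, which macrophages secrete and which carries cholesterol out of the cell. It had 221, 180 and 222 CPM in A20iKO libraries, 184, 173 and 240 CPM in WT+IFNa libraries and 40.5, 37.2 and 56.4 CPM in WT libraries. The A20iKO and WT+IFNa libraries overlapped throughout, and all 6 were above every WT library. Apoe rose by a log2 fold change of 2.21 in A20iKO against WT (SE 0.207, adjusted p = 1.55e-05) and by 2.15 in WT+IFNa against WT (SE 0.206, adjusted p = 3.11e-05), and it was the 1 marker called higher in both. Directly compared, A20iKO and WT+IFNa differed by 0.06 (95% interval -0.36 to 0.49, adjusted p = 0.954).

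Other genes of cholesterol efflux and lipoprotein handling were counted beside Apoe. All genes tested gave 5.77% called higher and 4.91% lower in A20iKO against WT, and 2.4% and 0.702% in WT+IFNa against WT. Of 13 tested, 2 rose and 1 fell in A20iKO against WT, 1 rose in WT+IFNa against WT and none was called between A20iKO and WT+IFNa (1 higher and 2 lower at an unadjusted p under 0.05, 1 higher by DESeq2 and none by limma). Lrp8, a receptor for apolipoprotein E, had a pattern close to that of Apoe: 109 ± 20.7 CPM in A20iKO, 101 ± 4.28 CPM in WT+IFNa and 27.9 ± 5.29 CPM in WT, with log2 fold changes against WT of 1.97 in A20iKO (adjusted p = 4.71e-05) and 1.86 in WT+IFNa (adjusted p = 0.000146). Pltp, the phospholipid transfer protein, rose to 43.0 ± 4.13 CPM in A20iKO, against 14.6 ± 8.43 CPM in WT (1.55, adjusted p = 0.0347). Rxra, a partner of the sterol-sensing LXR receptors, fell to 5.44 ± 1.01 CPM in A20iKO, against 20.6 ± 8.17 CPM in WT (-1.92, adjusted p = 0.0124).

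C1qa and C1qb encode the A and B chains of C1q, the recognition protein of the classical complement pathway, which macrophages and some dendritic cells make together with the C chain from C1qc. For C1qa the levels were 42.4, 31.9 and 36.3 CPM in A20iKO libraries, 10.5, 6.01 and 14.5 CPM in WT+IFNa libraries and 0.490, 7.88 and 2.13 CPM in WT libraries. The WT values rest on 5, 59 and 21 counts. A20iKO was above all other libraries, and the WT+IFNa and WT libraries overlapped through WT replicate 2. C1qa rose in A20iKO against WT with a log2 fold change of 3.42 (SE 0.724, adjusted p = 0.00773). With 1 library left out at a time this value ran from 2.90 to 4.79, highest without WT replicate 2. Its adjusted p was then 0.0396 at most. Neither WT+IFNa against WT (1.59, 95% interval 0.09 to 3.08, adjusted p = 0.348) nor A20iKO against WT+IFNa (1.83, interval 0.38 to 3.28, adjusted p = 0.164) passed. The value of WT+IFNa against WT passed in 2 of 21 alternatives. With 1 library left out it ran from 1.06 to 2.98 and passed only without WT replicate 2 (2.98, adjusted p = 0.0151).

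C1qb had 69.1, 54.5 and 84.4 CPM in A20iKO libraries, 14.2, 25.7 and 23.1 CPM in WT+IFNa libraries and 6.66, 2.14 and 13.7 CPM in WT libraries. The groups did not overlap, with A20iKO highest and WT lowest, but the gap between the highest WT and the lowest WT+IFNa library was small. It rose in A20iKO against WT by a log2 fold change of 3.20 (SE 0.514, adjusted p = 0.00121). With 1 library left out at a time this value ran from 2.75 to 3.95, highest without WT replicate 3. In WT+IFNa against WT the value was 1.47 (95% interval 0.41 to 2.53, adjusted p = 0.170), and it passed in 3 of 21 alternatives. With 1 library left out it ran from 1.05 to 2.23 and passed only without WT replicate 3 (2.23, adjusted p = 0.0295). A20iKO against WT+IFNa gave 1.72 (interval 0.68 to 2.77, adjusted p = 0.0586), which passed in 9 of 21 alternatives, as the C1qa value did in 6 of 21.

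The 3 chains assemble in equal numbers, and in WT cells their transcripts were steadier as a sum than singly. C1qc had 31.5, 37.3 and 32.0 CPM in A20iKO libraries, 8.16, 5.78 and 23.4 CPM in WT+IFNa libraries and 13.9, 7.88 and 3.95 CPM in WT libraries, and rose in A20iKO against WT (log2 fold change 1.97, SE 0.551, adjusted p = 0.0373). The summed level of the 3 chains was 143, 124 and 153 CPM in A20iKO libraries, 33.0, 37.5 and 61.1 CPM in WT+IFNa libraries and 21.1, 17.9 and 19.8 CPM in WT libraries. The sum averaged 140 ± 14.8 CPM in A20iKO, 43.8 ± 15.1 CPM in WT+IFNa and 19.6 ± 1.59 CPM in WT (SD, n = 3 each), and no group overlapped another. C1qa alone averaged 3.50 ± 3.88 CPM in WT, while in WT+IFNa the sum was no steadier than C1qb, at 21.0 ± 6.00 CPM. Within the sum the C1qa share was 29.6, 25.8 and 23.8% in A20iKO libraries, 32.0, 16.0 and 23.8% in WT+IFNa libraries and 2.33, 44.0 and 10.8% in WT libraries. The C1qb share also varied, from 37.9 to 68.5%, between WT+IFNa libraries. The exact 95% binomial intervals of the WT shares were 0.759 to 5.34%, 35.5 to 52.9% and 6.79 to 16.0%, which do not overlap each other; they cover counting error only, as reads without molecular identifiers are not independent molecules.

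**Figure D2:**
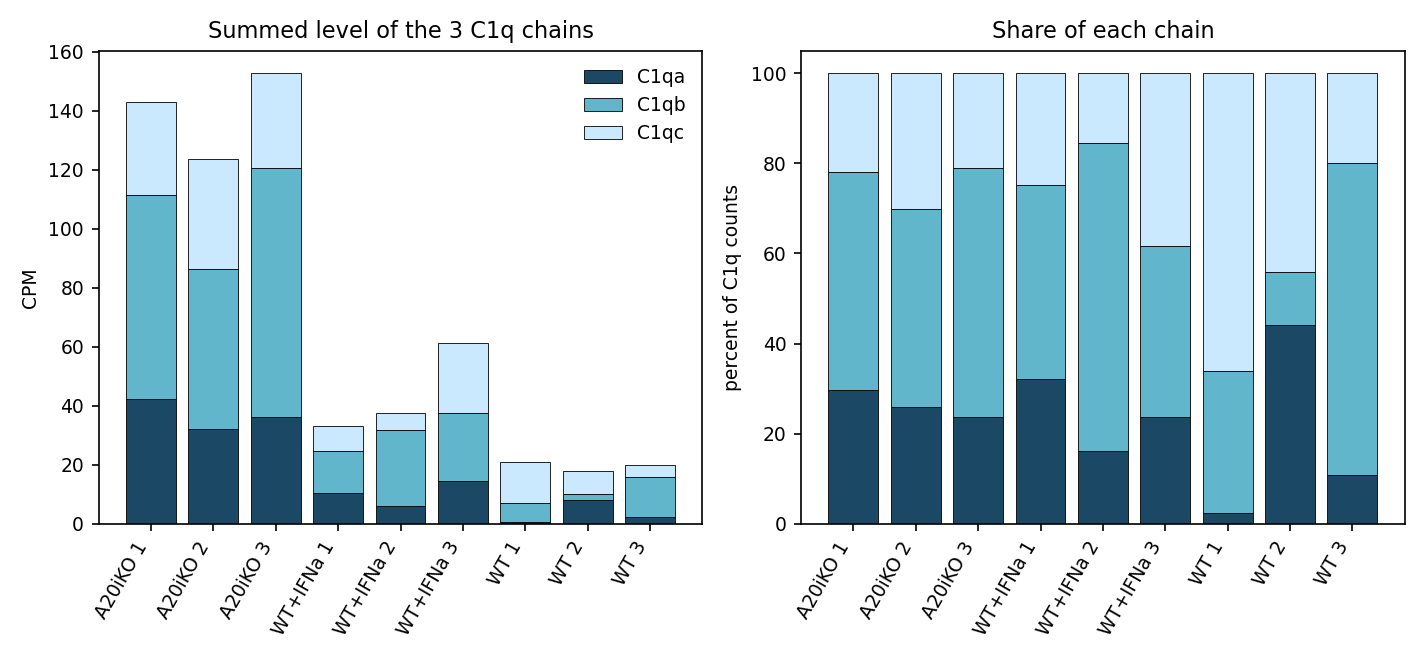
C1qa, C1qb and C1qc in each library, left as stacked CPM and right as percent of the C1q counts of that library. The A20iKO stacks reach 124 to 153 CPM with similar shares in each library, whereas the WT stacks of 17.9 to 21.1 CPM are made up of different chains in each library.

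Other complement genes moved in both directions: of 14 tested, 5 rose, C1qc among them, and 2 fell in A20iKO against WT, 2 rose and 1 fell in WT+IFNa against WT, and 2 were higher and 1 lower in A20iKO than in WT+IFNa. The shares of all genes were 5.77% higher and 4.91% lower in A20iKO against WT. The count of 5 dropped to 1 in the least favourable alternative and was 2 without the 3 libraries of highest connective tissue signal. C3, the central component of the cascade, averaged 130 ± 19.2 CPM in A20iKO, 10.8 ± 3.05 CPM in WT+IFNa and 3.87 ± 0.491 CPM in WT, and rose against WT by 5.06 in A20iKO (adjusted p = 3.68e-07) and by 1.47 in WT+IFNa (adjusted p = 0.00740). C3ar1, the receptor for the C3a fragment, had 34.8 ± 24.3 CPM in A20iKO, 34.8 ± 8.58 CPM in WT+IFNa and 6.25 ± 4.93 CPM in WT, and rose against WT in A20iKO (adjusted p = 0.0151) and in WT+IFNa (adjusted p = 0.0372). Cd93, a surface lectin-like protein once described as a C1q receptor, averaged 245 ± 33.0 CPM in A20iKO, 426 ± 82.9 CPM in WT+IFNa and 755 ± 181 CPM in WT and fell against WT in A20iKO (adjusted p = 0.000185) and in WT+IFNa (adjusted p = 0.0426).

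Adgre1 encodes F4/80, an adhesion G-protein-coupled receptor and the antigen most used to identify mouse macrophages. It was the 1 marker called lower in A20iKO against WT. Its level was 37.7, 39.4 and 34.1 CPM in A20iKO libraries, 53.4, 28.2 and 33.5 CPM in WT+IFNa libraries and 110, 59.3 and 108 CPM in WT libraries. The A20iKO libraries lay inside the range of the WT+IFNa libraries, and all 6 were below every WT library. Adgre1 fell against WT with a log2 fold change of -1.32 in A20iKO (SE 0.290, adjusted p = 0.00977) and of -1.27 in WT+IFNa (SE 0.290, adjusted p = 0.0308). Between A20iKO and WT+IFNa the difference was -0.05 (95% interval -0.67 to 0.57, adjusted p = 0.977).

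The call in WT+IFNa against WT was the least firm of the called values. Over 21 alternatives the log2 fold change ran from -1.60 to -1.08, and the call was lost in 6: without A20iKO replicate 2 (adjusted p = 0.0506), without WT+IFNa replicate 2 (0.165) or 3 (0.141), without WT replicate 1 (0.110) or 3 (0.133), and when the 2 groups were fitted alone (0.0615). Among the other adhesion receptors, 4 of 11 tested rose and none fell in A20iKO against WT, where 5.77% of all genes rose and 4.91% fell. The number that rose ran from 1 to 5 over the alternatives. Adgre4, a close relative of Adgre1 that marks nonclassical monocytes, averaged 39.1 ± 8.18 CPM in A20iKO, 3.99 ± 1.99 CPM in WT+IFNa and 7.92 ± 4.24 CPM in WT, and rose in A20iKO against WT (2.30, adjusted p = 0.00706), opposite in direction to Adgre1. Adgrg5 rose to 21.5 ± 8.52 CPM in A20iKO, against 5.74 ± 0.967 CPM in WT (1.90, adjusted p = 0.0119). Adgrg1 rose too (adjusted p = 0.0243), with 126, 151 and 109 counts in A20iKO libraries and 2, 15 and 5 in WT libraries. DESeq2 and limma each called 2 of the 11 lower as well. None was called in WT+IFNa against WT by edgeR's test (1 higher and 3 lower at an unadjusted p under 0.05, 1 in each direction by DESeq2 and none by limma), and 2 were higher in A20iKO than in WT+IFNa. Of 10 tested surface peptidases related in role to Anpep, none rose and 1, Dpp4, fell in A20iKO, to 80.2 ± 19.6 CPM against 136 ± 16.1 CPM in WT (-0.76, adjusted p = 0.0274). Dpp4 was also the 1 peptidase called lower in A20iKO against WT+IFNa, and none was called in WT+IFNa against WT (1 higher at an unadjusted p under 0.05, none by DESeq2 or limma).

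**Figure D3:**
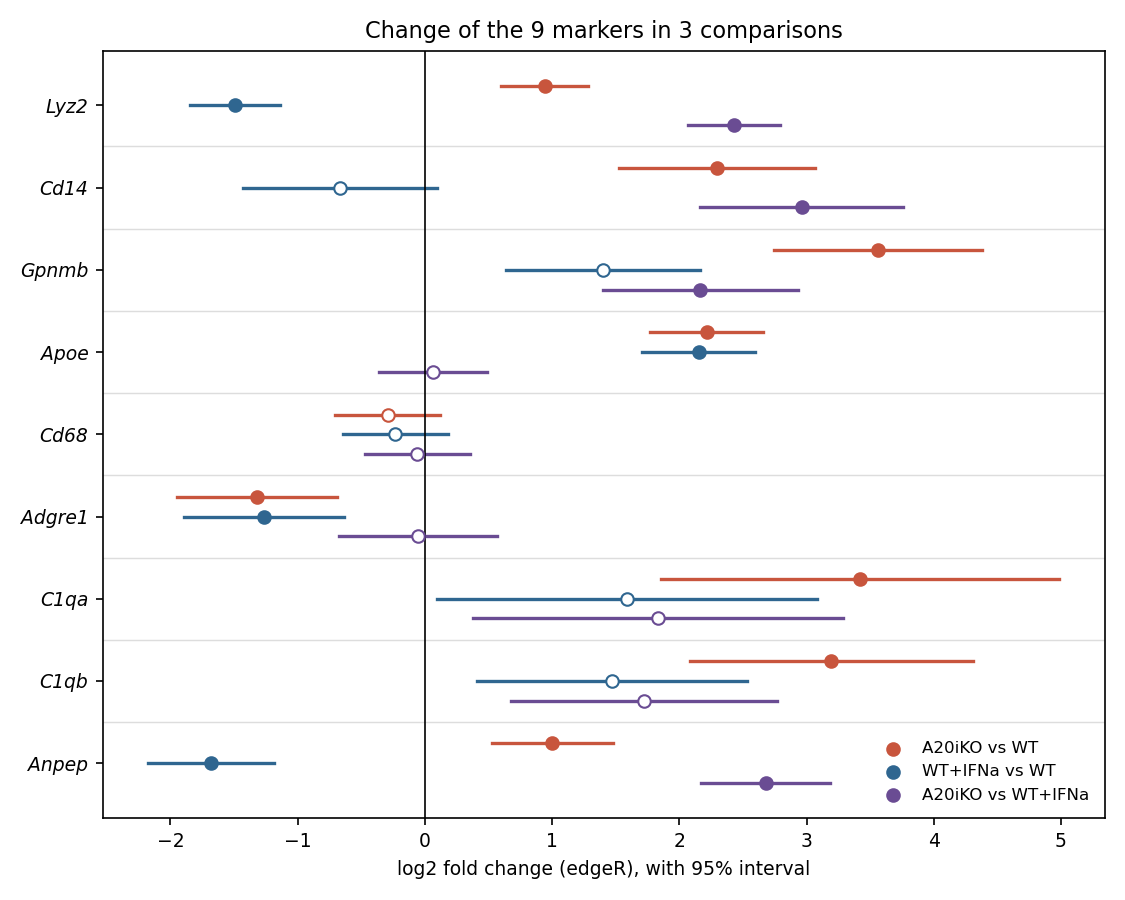
Log2 fold change of each marker with its 95% interval in 3 comparisons, A20iKO against WT, WT+IFNa against WT and A20iKO against WT+IFNa; filled points passed an adjusted p of 0.05 and open points did not. Lyz2 and Anpep have intervals on opposite sides of 0 in A20iKO and WT+IFNa, Apoe is to the right in both against WT, and Adgre1 is to the left in both.

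The order of levels among the markers differed between the groups. In A20iKO cells Lyz2 came first, followed by Gpnmb and Apoe, which overlapped, then Cd68, then Anpep, Cd14 and C1qb, each overlapping the next, and last Adgre1 and C1qa, which overlapped. In WT+IFNa cells Apoe came first, followed by Lyz2 and Cd68, then Gpnmb and Adgre1, then C1qb, and last Anpep, C1qa and Cd14; the markers named together overlapped. In WT cells Lyz2 came first, followed by Cd68 and Adgre1, then Apoe and Anpep, and last Gpnmb, Cd14, C1qb and C1qa, with overlap again inside each of these sets. By mean level Gpnmb was number 2 of the 9 in A20iKO, 4 in WT+IFNa and 6 in WT, while Adgre1 was number 8 in A20iKO, 5 in WT+IFNa and 3 in WT.

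Likeness of pattern was measured as the root mean square distance between log2 CPM profiles over the 9 libraries, each centred on its own mean, so that a smaller value is more alike. These are descriptions over libraries that share their groups. Among the 9 markers Lyz2 and Anpep were closest, at 0.257, followed by Cd68 and Adgre1 at 0.541, and Adgre1 and C1qa were farthest apart at 2.41. Of 8172 other genes at 10 CPM or more on average, with predicted genes left out, Tmem176a was nearest to Lyz2 at 0.323 and Scd2 followed at 0.371. Ifitm1 was nearest to Anpep at 0.357, with Scd2 again next at 0.371. Prkcb and Rgs7bp were nearest to Cd14 at 0.341 and 0.416, and Hvcn1 and Relb to Gpnmb at 0.285 and 0.460. Relb, a subunit of NF-kB, averaged 321 CPM in A20iKO, 98.9 CPM in WT+IFNa and 37.6 CPM in WT. Nearest to Apoe were Ly6e, an interferon-induced surface protein, at 0.311 and the chemokine Ccl5 at 0.329. Adgre1 was closest to the metallothionein Mt1 at 0.188 and to Scamp4 at 0.253. No gene of this set was as near to C1qa or C1qb: Fscn1 and Cd72 lay at 0.517 and 0.574 from C1qa, and Socs2 and Samsn1 at 0.571 and 0.607 from C1qb.

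Wider sets of monocyte and macrophage genes were counted beside the 9 markers. Of 69 tested genes in 4 such lists, 26 rose and 4 fell in A20iKO against WT, 11 rose and none fell in WT+IFNa against WT, and 10 were higher and 6 lower in A20iKO than in WT+IFNa. The shares of all genes called higher and lower were 5.77% and 4.91% in A20iKO against WT, and 2.4% and 0.702% in WT+IFNa against WT. In A20iKO against WT+IFNa they were 2.05% and 3.41%. Over the alternatives 22 to 33 were higher and 4 to 8 lower in A20iKO against WT among the 69. In WT+IFNa against WT 7 to 17 were higher and 0 to 1 lower. Between A20iKO and WT+IFNa 7 to 19 were higher and 2 to 9 lower. The median log2 fold change of the 69 was 0.86 in A20iKO against WT (-0.01 over all genes), 0.53 in WT+IFNa against WT (-0.02 over all genes) and 0.25 in A20iKO against WT+IFNa (0.02 over all genes). Without the 3 libraries of highest connective tissue signal, 24 were higher and 4 lower in A20iKO against WT, 8 higher and none lower in WT+IFNa against WT, and 12 higher and 5 lower in A20iKO against WT+IFNa. Median and counts describe these lists only, since their genes were chosen with earlier results of these data known.

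In the macrophage core list 10 of 23 rose and 1 fell in A20iKO against WT, 5 rose in WT+IFNa against WT, and 3 were higher and 1 lower in A20iKO than in WT+IFNa. The number higher in WT+IFNa against WT was 5 by DESeq2, 2 by limma and 2 without the 3 libraries of highest connective tissue signal. Over the alternatives 7 to 13 were higher in A20iKO against WT, and 1 to 7 in A20iKO against WT+IFNa. Csf1r, the receptor for macrophage colony-stimulating factor, averaged 593 ± 38.9 CPM in A20iKO, 185 ± 7.10 CPM in WT+IFNa and 146 ± 9.97 CPM in WT, and rose in A20iKO against WT (2.02, adjusted p = 1.10e-06). Mertk, which recognises dying cells, had 179, 161 and 237 counts in A20iKO libraries, 41, 20 and 18 in WT+IFNa libraries and 6, 4 and 2 in WT libraries, and rose against WT in A20iKO (adjusted p = 8.72e-05) and in WT+IFNa (adjusted p = 0.0203). Msr1, a scavenger receptor, rose to 31.6 ± 3.77 CPM in A20iKO, against 3.37 ± 1.56 CPM in WT (3.23, adjusted p = 0.00107). Fcgr1, the high-affinity IgG receptor, averaged 23.6 ± 9.43 CPM in A20iKO, 74.5 ± 17.5 CPM in WT+IFNa and 1.92 ± 1.55 CPM in WT, and rose against WT in A20iKO (adjusted p = 0.00157) and in WT+IFNa (adjusted p = 0.000258). Axl, a relative of Mertk, rose in WT+IFNa to 336 ± 45.5 CPM, against 68.9 ± 42.2 CPM in WT (2.29, adjusted p = 0.00453), and had 119 ± 52.8 CPM in A20iKO (adjusted p = 0.245 against WT). Markers of tissue-resident macrophages, named here after their values were seen, were low and went different ways. Marco had 69, 60 and 63 counts in A20iKO libraries, 1, 2 and 8 in WT+IFNa libraries and 0, 0 and 1 in WT libraries, and was called higher in A20iKO than in WT (adjusted p = 0.00932). Cd5l summed to 112 counts in A20iKO, 90 in WT+IFNa and 1 in WT, and was called higher than in WT in A20iKO (adjusted p = 0.0118) and in WT+IFNa (adjusted p = 0.0331). Cd163 averaged 0.570 ± 0.498 CPM in A20iKO, 2.73 ± 2.53 CPM in WT+IFNa and 9.18 ± 5.63 CPM in WT (adjusted p = 0.0567 for A20iKO against WT). Siglec1 summed to 15 counts in A20iKO, 24 in WT+IFNa and 0 in WT, and Vsig4 to 0 in A20iKO, 2 in WT+IFNa and 1 in WT.

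In the classical monocyte list 8 of 18 rose and none fell in A20iKO against WT, 3 rose in WT+IFNa against WT, and 3 were higher and 2 lower in A20iKO than in WT+IFNa. Ly6c2, whose product is the Ly6C antigen of classical monocytes, averaged 740 ± 115 CPM in A20iKO, 678 ± 103 CPM in WT+IFNa and 26.0 ± 10.6 CPM in WT (log2 fold changes against WT of 4.84 in A20iKO, adjusted p = 3.68e-07, and 4.71 in WT+IFNa, adjusted p = 4.74e-07). Plac8 was also high in both over WT, with 1131 ± 140 CPM in A20iKO, 1347 ± 175 CPM in WT+IFNa and 133 ± 25.0 CPM in WT. Hp, the gene of haptoglobin, rose in A20iKO alone among the comparisons with WT, to 231 ± 28.8 CPM in A20iKO, against 3.20 ± 0.337 CPM in WT+IFNa and 2.68 ± 1.20 CPM in WT, and its direct difference between A20iKO and WT+IFNa was 6.17 (adjusted p = 4.70e-07). Ccr2, the chemokine receptor by which monocytes leave the marrow, averaged 566 ± 91.2 CPM in A20iKO, 1063 ± 212 CPM in WT+IFNa and 772 ± 102 CPM in WT, and was lower in A20iKO than in WT+IFNa (-0.91, adjusted p = 0.00678).

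The nonclassical monocyte list had 2 of 10 higher and 1 lower in A20iKO against WT and none called in WT+IFNa against WT (3 higher and 1 lower at an unadjusted p under 0.05, 2 and 1 by DESeq2 and none by limma). Cx3cr1, the fractalkine receptor, rose to 362 ± 20.6 CPM in A20iKO, against 199 ± 31.3 CPM in WT (0.86, adjusted p = 0.00347), whereas Nr4a1, a nuclear receptor that nonclassical monocytes need, fell to 33.0 ± 4.89 CPM in A20iKO, against 198 ± 124 CPM in WT (-2.59, adjusted p = 0.000294). In A20iKO against WT+IFNa 1 gene of this list was higher and 1 lower. Of 18 lipid-associated macrophage genes, 6 rose and 2 fell in A20iKO against WT, 3 rose in WT+IFNa against WT, and 3 were higher and 2 lower in A20iKO than in WT+IFNa. Lpl, lipoprotein lipase, averaged 204 ± 34.5 CPM in A20iKO, 67.9 ± 7.84 CPM in WT+IFNa and 25.8 ± 3.28 CPM in WT, and Ctsd, the protease cathepsin D, averaged 377 ± 33.7 CPM in A20iKO, 204 ± 22.3 CPM in WT+IFNa and 96.7 ± 18.8 CPM in WT; both were called in all 3 comparisons. Lgals3, or galectin-3, went the other way and fell to 707 ± 75.9 CPM in A20iKO, against 2182 ± 263 CPM in WT (-1.63, adjusted p = 5.86e-06).

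**Figure D4:**
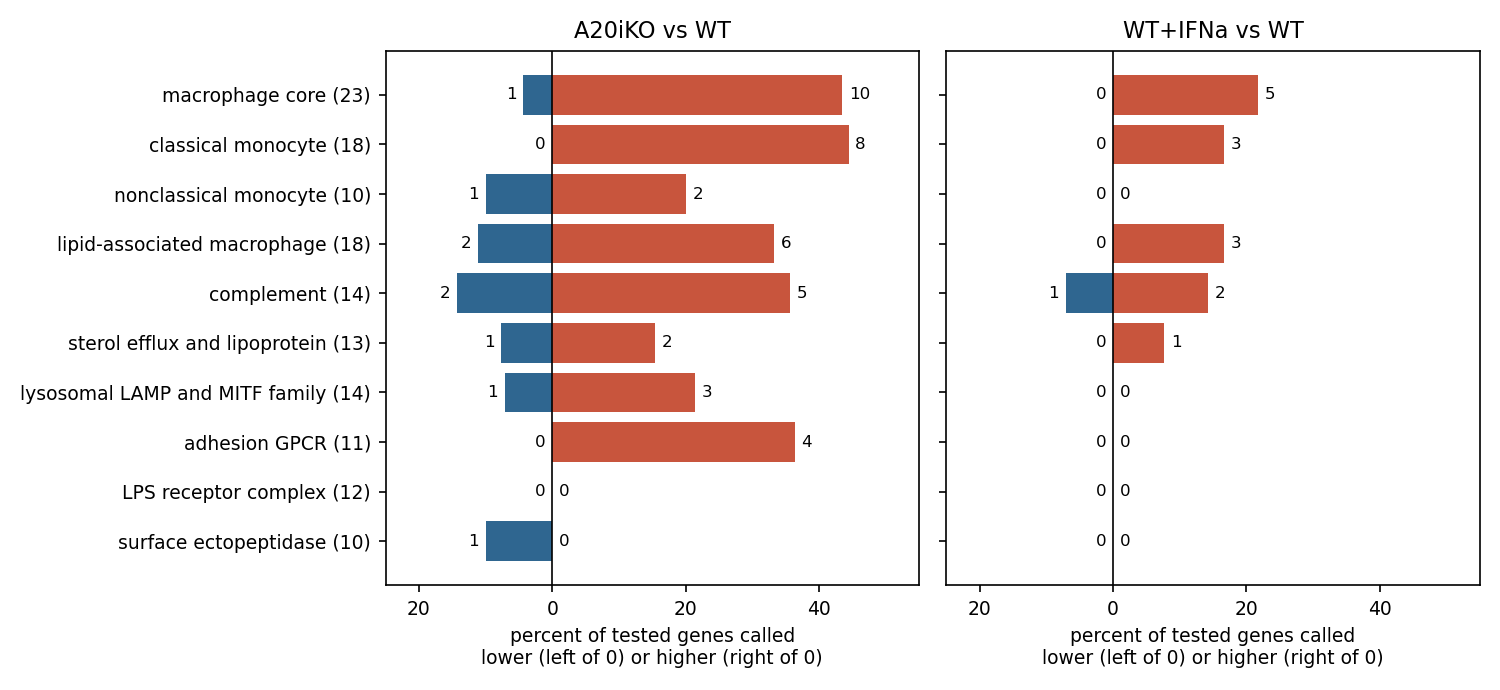
Percent of the tested genes of each list that were called lower (left of 0) or higher (right of 0) in A20iKO against WT and in WT+IFNa against WT, with the number called at the bar's end and the number tested in brackets. Macrophage core (10 of 23) and classical monocyte genes (8 of 18) have long bars to the right in A20iKO, and the lipopolysaccharide receptor genes have none in either panel. Of all genes, 5.77% were called higher and 4.91% lower in A20iKO against WT, and 2.4% and 0.702% in WT+IFNa against WT.

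Genes of other blood cells were called between the groups too, and the shares of all genes given for the wider sets apply to these counts as well. Of 10 cDC1 genes, 5 were lower in A20iKO than in WT, 2 were lower in WT+IFNa than in WT and 4 were lower in A20iKO than in WT+IFNa, with none higher; their summed level was 726 to 938 CPM in A20iKO, 1301 to 1511 CPM in WT+IFNa and 1584 to 1936 CPM in WT. Among 15 cDC2 genes, 4 fell in WT+IFNa against WT, and 7 were lower and 2 higher in A20iKO than in WT+IFNa. For plasmacytoid cells 6 of 9 genes rose and 1 fell in A20iKO against WT, 2 rose in WT+IFNa against WT, and 2 were higher and 1 lower in A20iKO than in WT+IFNa, with sums of 937 to 1232 CPM in A20iKO, 980 to 1124 CPM in WT+IFNa and 706 to 820 CPM in WT. The gene that fell was Siglech, at 62.8 ± 13.6 CPM in A20iKO, 159 ± 28.2 CPM in WT+IFNa and 241 ± 29.4 CPM in WT. Tcf4 was the largest part of the sum, at 528 ± 25.4 CPM in A20iKO, 393 ± 17.4 CPM in WT+IFNa and 311 ± 48.8 CPM in WT. The neutrophil list had 5 of 14 higher and 2 lower in A20iKO against WT, 3 higher in WT+IFNa against WT, and 3 higher and 3 lower in A20iKO than in WT+IFNa, with sums of 326 to 467 CPM in A20iKO, 349 to 413 CPM in WT+IFNa and 107 to 131 CPM in WT. Within it Prtn3, a granule protease of early myeloid cells, averaged 174 ± 38.9 CPM in A20iKO, 7.19 ± 3.67 CPM in WT+IFNa and 0.593 ± 0.544 CPM in WT, whereas S100a9, abundant in mature neutrophils and monocytes, averaged 4.84 ± 1.45 CPM in A20iKO, 157 ± 18.4 CPM in WT+IFNa and 47.8 ± 0.173 CPM in WT, and Ly6g had no count in any library.

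Of 6 mast cell and basophil genes, 3 rose in A20iKO against WT, 2 rose in WT+IFNa against WT and none was called between A20iKO and WT+IFNa (1 at an unadjusted p under 0.05, none by DESeq2 or limma); their sum was 190 to 213 CPM in A20iKO, 109 to 187 CPM in WT+IFNa and 39.6 to 69.2 CPM in WT. Of 5 erythroid genes 1, Car2, rose against WT in A20iKO (adjusted p = 0.00229) and in WT+IFNa (adjusted p = 0.0191), with 2 counts summed over the WT libraries. The other 4, all globin genes, were not called by edgeR's test, though Hba-a1 had an unadjusted p of 0.0417 in A20iKO against WT. None of the 5 differed between A20iKO and WT+IFNa at an unadjusted p under 0.05. Their sums were 87.5 to 606 CPM in A20iKO, 91.3 to 136 CPM in WT+IFNa and 105 to 118 CPM in WT. No lymphocyte gene of 2 tested and no connective tissue gene of 13 tested was called in any comparison by edgeR's test (at an unadjusted p under 0.05, 1 of each list was higher in A20iKO than in WT and 1 lymphocyte gene was higher in A20iKO than in WT+IFNa, and DESeq2 and limma called that many lymphocyte genes higher in A20iKO); the lymphocyte sum was 21.6 to 27.8 CPM in A20iKO, 7.52 to 10.1 CPM in WT+IFNa and 4.05 to 7.15 CPM in WT, and Cd79a and Ncr1 had no count in any library. The part of these cells in the changes of the 9 markers was not tested. Without A20iKO replicate 1, WT+IFNa replicate 3 and WT replicate 2, the libraries highest in connective tissue genes, an alternative added after the data were seen, 7 of the 9 markers were called higher and 1 lower in A20iKO against WT, beside 681 genes higher and 605 lower of 13174 tested. In WT+IFNa against WT 1 marker was higher and 3 lower there, beside 276 genes higher and 90 lower, and in A20iKO against WT+IFNa 5 markers were higher and none lower, beside 280 genes higher and 415 lower.

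**Figure D5:**
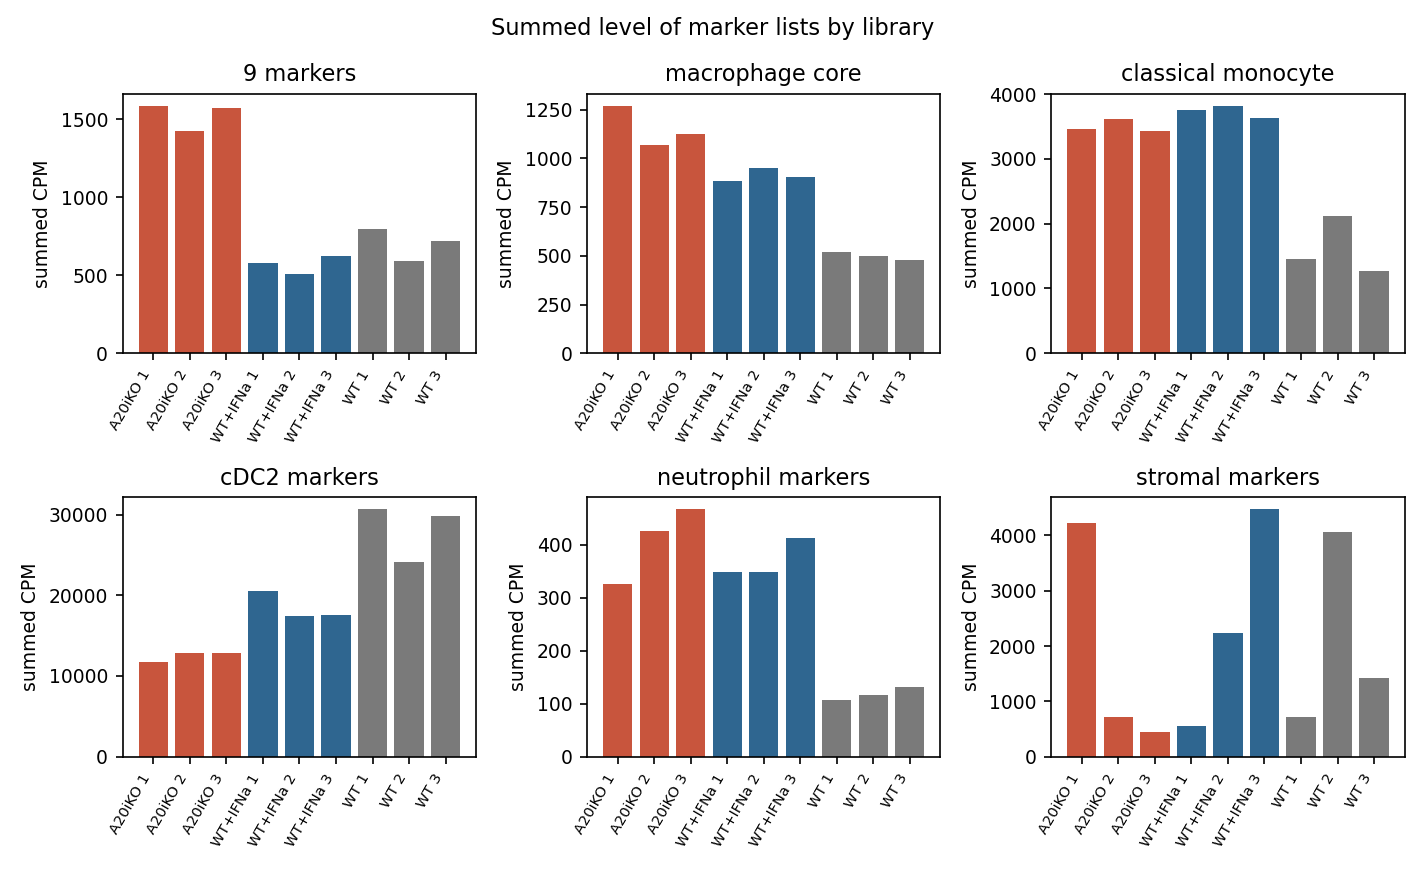
Summed CPM per library, from 0, for the 9 markers, macrophage core, classical monocyte, cDC2, neutrophil and connective tissue (stromal) genes. The 9 markers sum to 1422 to 1586 CPM in A20iKO, 507 to 626 CPM in WT+IFNa and 592 to 798 CPM in WT, the cDC2 genes are lowest in A20iKO and highest in WT, and the connective tissue genes are high in 1 or 2 libraries of each group.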

How the data were processed

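The 9 genes and the 18 lists counted beside them were chosen with earlier results of these data known. The authors deposited 1 table of read counts per gene for each of 9 libraries. Per the submitters' processing notes, STAR 2.7.10b, featureCounts 2.0.6, Bowtie2 and fastp 0.23.1 were used, with GRCm39; strand and multiple mapping settings are not given in those notes. The labels record no molecular identifiers, and 3′ tags place 1 count per read near the transcript end whatever its length. Genes were kept by edgeR's filterByExpr (minimum count 10, total 15), which left 13251 genes with 99.83% of all counts. edgeR 4.0.16 in R 4.3.3 fitted TMM-scaled counts of all 9 libraries in 1 quasi-likelihood model with 3 groups (6 residual degrees of freedom) and no covariate; p-values were adjusted over all kept genes. The common biological coefficient of variation was 0.554. CPM are counts per 1000000 of library total times TMM factor, with means ± SD over 3 libraries. DESeq2 1.42.0, limma 3.58.1 (voom), other scalings and filters, a replicate block, a connective tissue covariate and leaving out each library were run as alternatives. The steps were run on simulated counts drawn with this fit's own estimates of spread. Changes were put only into genes at 10 CPM or more on average. Such a run cannot check the assumed spread or changes in lower genes. Libraries of a group differed more than repeat reads of 1 library would (chi-square per degree of freedom at least 14.4). Separate preparations of 1 RNA could differ so too, so this does not show that the libraries are independent. Each library was counted as 1 sample. A predicted gene, Gm26917, took 5.21 to 17.3% of counts and was left out in 1 alternative.

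Genes named from the lists were up to 3 of smallest p called in A20iKO against WT and up to 2 in WT+IFNa against WT, at 5 CPM or more in the higher group, plus Lyz1, C1qc, Tlr4, Ly96, Csf1r, Mertk, Fcgr1, Ccr2, Ly6c2 and Tnfaip3; not all that the rule allows are printed. Mgl2, Esam, Sirpa, Clec4a4, Cd7, Tcf4, Hba-a1 and the markers of tissue-resident macrophages were named outside this rule. Likeness used log2 CPM with a prior count of 2 and left out predicted genes, those named Gm and a number or Rik. Promoter windows are from RefSeq, and the Lyz windows were aligned end to end.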

Additional observations from a re-analysis of the deposited data

How the results depend on the processing

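Of 567 values of the 9 markers over 21 alternatives, 522 kept their direction and their side of the threshold, 27 newly passed, 8 no longer passed and 10 changed sign, all 10 among differences between A20iKO and WT+IFNa that were not called. In A20iKO against WT, every called marker kept its call in 21 of 21 alternatives except Anpep (19). With library size alone Cd68 was 0.048 and Adgre1 0.066, with the replicate block Adgre1 was 0.013, and without the 3 libraries of highest connective tissue signal, an alternative chosen after seeing the data, Cd68 was 0.097. Leaving out 1 library at a time moved these log2 differences from -0.024 to 0.22 for Apoe (lowest without WT+IFNa replicate 2), from -0.22 to 0.049 for Cd68 and from -0.23 to 0.30 for Adgre1. The cause of these changes was not tested.

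The number of genes called depended more on the fit. A connective tissue covariate gave 986 genes lower in A20iKO than in WT (651 as reported), 491 higher and 226 lower in WT+IFNa than in WT (318 and 93), and 456 higher and 776 lower in A20iKO than in WT+IFNa (271 and 452). DESeq2 gave 519 and 228 for WT+IFNa against WT and 541 higher in A20iKO than in WT+IFNa. Keeping every gene with at least 1 count gave 164 lower in WT+IFNa and 430 higher in A20iKO than in WT+IFNa, and fitting these 2 groups alone gave 471 higher. With library size alone 184 genes were lower in WT+IFNa; the share of calls that were higher was 60.9% against 77.4% in WT+IFNa against WT, with a median log2 shift of all genes of -0.15, and 49.3% against 37.5% in A20iKO against WT+IFNa, with a shift of 0.12. Markers called higher in WT+IFNa against WT (1 as reported) numbered 2 with RLE factors, 3 with DESeq2, 4 with every gene kept, 2 at 10 CPM or more in 3 libraries and 2 with the covariate. Leaving out 1 library at a time gave 478 to 750 genes higher and 439 to 721 lower in A20iKO against WT, 225 to 320 higher and 43 to 106 lower in WT+IFNa against WT, and 145 to 342 higher and 227 to 546 lower in A20iKO against WT+IFNa; markers called higher ran from 6 to 7, 1 to 2 and 4 to 6, and called lower 1, 2 to 3 and 0.

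Over 9 same-number pairs the correlation of deviations ran from -0.37 to 0.24, and not every library correlated best with its own number. The largest correlations were of A20iKO replicate 1 with WT+IFNa replicate 3 (0.36) and with WT replicate 2 (0.35). These are the libraries highest in connective tissue genes. Such differences could hide a pairing, so this check cannot tell whether the replicate numbers pair the libraries. With a replicate block 45 genes were lower in WT+IFNa than in WT, against 93. Depth limits C1qa most, with 5 counts in 1 WT library.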
